A study of Mus musculus with 46 samples.

Results

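The acetylation of lysine 27 of histone H3 (H3K27ac) was compared between microglia of mice fed cuprizone and microglia of neonatal mice, in both cases in cells that did not stain for the proliferation protein Ki67. The members are the regions of the genome in the H3K27ac lists of 2 libraries of cuprizone-fed mice and 2 libraries of mice at postnatal day 8 (PND8). Listed regions that shared at least 1 bp were merged, which gave 35185 regions. The 12 H3K27ac lists of the whole series merged in the same way gave 40726. Both groups were male, wild-type C57BL/6 mice. The PND8 group was 8 days old and untreated, although the sample titles also carry the word adult. The cuprizone group was 90 days old and had eaten a cuprizone diet for 4 weeks. Age and diet therefore differ together, and their contributions cannot be told apart. Per the labels, brains were dissociated on ice, and microglia were enriched on Percoll and stained for CD11b, CD45 and CD44. They were then fixed, stained with an antibody to Ki67 and sorted. The labels do not say whether the replicates came from separate animals, so the p-values measure the spread between these libraries. In bulk chromatin, fewer cells that carry a mark and less of the mark in each cell cannot be told apart.

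H3K27ac lies on active promoters and enhancers, the DNA segments near and far from a gene's transcription start site (TSS) that take part in its transcription. Microglia are the resident macrophages of the brain, and in the neonatal brain they divide, engulf dying cells and synapses, and lack part of the adult gene programme. Cuprizone is a copper chelator that kills oligodendrocytes, so that microglia meet large amounts of myelin debris, and a set of genes known from damaged and ageing brain (disease-associated microglia, with Axl, Itgax, Clec7a, Lpl and Spp1 among them) is typically expressed there.

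Each region was assigned to the nearest TSS of the deposited count table within 100 kb, and 3795 of the 35185 regions had none. The sequences below are the 250 bases before the TSS of 7 genes whose promoter regions the results turn on. They were taken from RefSeq's mouse assembly GRCm38.p6 (mm10) and are printed 5′ to 3′ on the gene's own strand. Capitals mark matches, on either strand, to the letters of 8 short motifs: GAGGAA (the PU.1 core), TGANTCA (AP-1), CACGTG (an E-box), GAAA, any 2 bases and GAAA (the interferon-stimulated response element, ISRE), GGCGGGAA (E2F), CCAAT (the CCAAT box), TTTGAA (the cell cycle homology region, CHR) and TCACNCCAC (a sterol response element). Axl, Itgax, Clec7a and Isg15 lay in regions higher in cuprizone, Mrc1 and Cdk1 in regions lower in cuprizone, and Igf2bp3 in a region listed only in PND8.
Axl: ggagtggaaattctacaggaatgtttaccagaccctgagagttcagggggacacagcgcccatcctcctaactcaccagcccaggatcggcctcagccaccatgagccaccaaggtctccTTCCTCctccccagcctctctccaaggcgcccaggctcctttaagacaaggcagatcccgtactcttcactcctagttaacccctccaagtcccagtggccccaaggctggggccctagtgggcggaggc
Itgax: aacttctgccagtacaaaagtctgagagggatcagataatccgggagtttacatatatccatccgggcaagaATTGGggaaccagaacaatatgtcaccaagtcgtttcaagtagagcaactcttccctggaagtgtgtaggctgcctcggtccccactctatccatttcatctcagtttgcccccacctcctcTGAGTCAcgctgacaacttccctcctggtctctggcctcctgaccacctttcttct
Clec7a: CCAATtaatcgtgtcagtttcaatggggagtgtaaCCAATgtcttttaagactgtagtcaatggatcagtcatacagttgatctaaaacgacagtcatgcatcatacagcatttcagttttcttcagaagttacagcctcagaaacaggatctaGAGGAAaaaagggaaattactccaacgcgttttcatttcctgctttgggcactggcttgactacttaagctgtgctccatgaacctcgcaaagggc
Isg15: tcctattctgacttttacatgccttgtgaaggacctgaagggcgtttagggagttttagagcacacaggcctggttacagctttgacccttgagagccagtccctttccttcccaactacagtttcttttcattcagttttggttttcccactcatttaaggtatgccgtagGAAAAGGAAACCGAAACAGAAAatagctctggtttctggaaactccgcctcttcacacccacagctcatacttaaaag
Mrc1: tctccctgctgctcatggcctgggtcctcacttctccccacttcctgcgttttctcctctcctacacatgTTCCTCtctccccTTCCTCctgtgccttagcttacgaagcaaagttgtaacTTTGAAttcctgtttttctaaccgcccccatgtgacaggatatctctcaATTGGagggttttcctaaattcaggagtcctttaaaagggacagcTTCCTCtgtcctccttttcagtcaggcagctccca
Igf2bp3: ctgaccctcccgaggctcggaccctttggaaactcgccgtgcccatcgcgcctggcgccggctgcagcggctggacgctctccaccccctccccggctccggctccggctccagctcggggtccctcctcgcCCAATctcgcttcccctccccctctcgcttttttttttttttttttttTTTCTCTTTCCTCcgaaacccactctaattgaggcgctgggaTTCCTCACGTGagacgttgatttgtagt
Cdk1: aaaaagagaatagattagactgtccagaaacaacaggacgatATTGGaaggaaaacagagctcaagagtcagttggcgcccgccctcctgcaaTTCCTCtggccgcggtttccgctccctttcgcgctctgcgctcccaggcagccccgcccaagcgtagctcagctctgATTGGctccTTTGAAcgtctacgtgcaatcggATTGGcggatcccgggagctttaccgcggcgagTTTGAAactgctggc
Their positions are chr7:25788734-25788983 on the minus strand for Axl, chr7:128129300-128129549 on the plus strand for Itgax, chr6:129472780-129473029 on the minus strand for Clec7a and chr4:156200819-156201068 on the minus strand for Isg15. Those of the others are chr2:14229164-14229413 on the plus strand for Mrc1, chr6:49214955-49215204 on the minus strand for Igf2bp3 and chr10:69352913-69353162 on the minus strand for Cdk1. Isg15, an interferon-induced ubiquitin-like protein, had 3 overlapping matches to the ISRE, which began 78, 72 and 66 bases before the TSS. Cdk1, the kinase that drives entry into mitosis, had 3 CCAAT boxes and 2 CHR matches, the latter 71 and 15 bases before the TSS. In Igf2bp3 a PU.1 core overlapped the E-box and another overlapped the ISRE letters. A match is a description of these letters, not evidence of a bound factor.

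The 4 lists rest on 19600001 to 21747628 mapped tags per library and hold 24082 to 30539 regions. The regions held 45.47% to 47.54% of the tags in the PND8 libraries, and 56.30% and 69.66% in the cuprizone libraries. Signal is given throughout as the summed tags of a library's listed regions, scaled by the authors to 10000000 tags. Promoter regions of the microglial genes P2ry12, Csf1r, Cx3cr1, Sall1 and Tmem119 were listed in all 4 libraries. The Mki67 promoter region, of the gene for Ki67, had a signal of 117.3 and 131.5 in PND8 and was listed in 1 of the 2 cuprizone libraries, at 67.6. In the Ki67-positive cells of the same groups it stood at 309.7 and 332.2 in PND8 and at 142.4 and 260.0 after cuprizone. It was thus listed in the Ki67-negative cells too, at a lower signal than in the Ki67-positive library of the same group and number.

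The largest part of the H3K27ac landscape was shared. Of the 35185 regions, 20350 (57.8%) were listed in all 4 libraries, and these were tested with limma on log2(signal + 1) after the library medians had been aligned. Of them 2843 (14.0%) were higher and 1951 (9.59%) were lower in cuprizone at a Benjamini-Hochberg adjusted p under 0.05. A further 1301 regions (3.70% of 35185) were listed in both cuprizone libraries and in neither PND8 library, and 1392 (3.96%) in both PND8 libraries and in neither cuprizone library. The other 12142 regions had mixed patterns. The median log2 difference of tested regions was -0.03, with quartiles of -0.4 and 0.41 and a range from -3.77 to 4.66. The SD of the log2 difference was 0.7327 between the group means, against 0.4223 between the PND8 replicates and 0.4841 between the cuprizone replicates. A difference of at least 1 on the log2 scale was met by 1673 of the higher and 1011 of the lower regions. The balance of directions depended on the alignment. On the values as deposited, whose median difference was 0.3, 4768 regions were higher and 404 lower, so each difference below is relative to the median region. Without the first PND8 library 1881 regions were higher and 871 lower, and without the second PND8 library 1250 were lower. The cuprizone-only regions numbered 4199 without the first cuprizone library and 2096 without the second PND8 library, and the PND8-only regions 4402 without the second cuprizone library, 3216 without the first PND8 library and 2358 without the second. The first library of each group carries the same code in its file header, which the labels do not explain, and the second libraries carry different codes. Within the pair of that code, which is part of the calls, all 2843 regions were higher in cuprizone, with a median of 1.22, and all 1951 were lower, with a median of -1.14. A fit over the Ki67-negative and Ki67-positive libraries with the code as a term, added after the data were seen, called 2380 of 2538 and 1434 of 1642 regions with values in the same direction. The codes of the second libraries are not shared between groups, so the group difference in that fit came from the first libraries alone. Its spread came from differences between the Ki67 fractions, not between replicates, and it reuses the libraries that made the calls. Signal per kb of listed sequence called 1839 of the 2843 and 989 of the 1951 in the same direction.

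**Figure D1:**
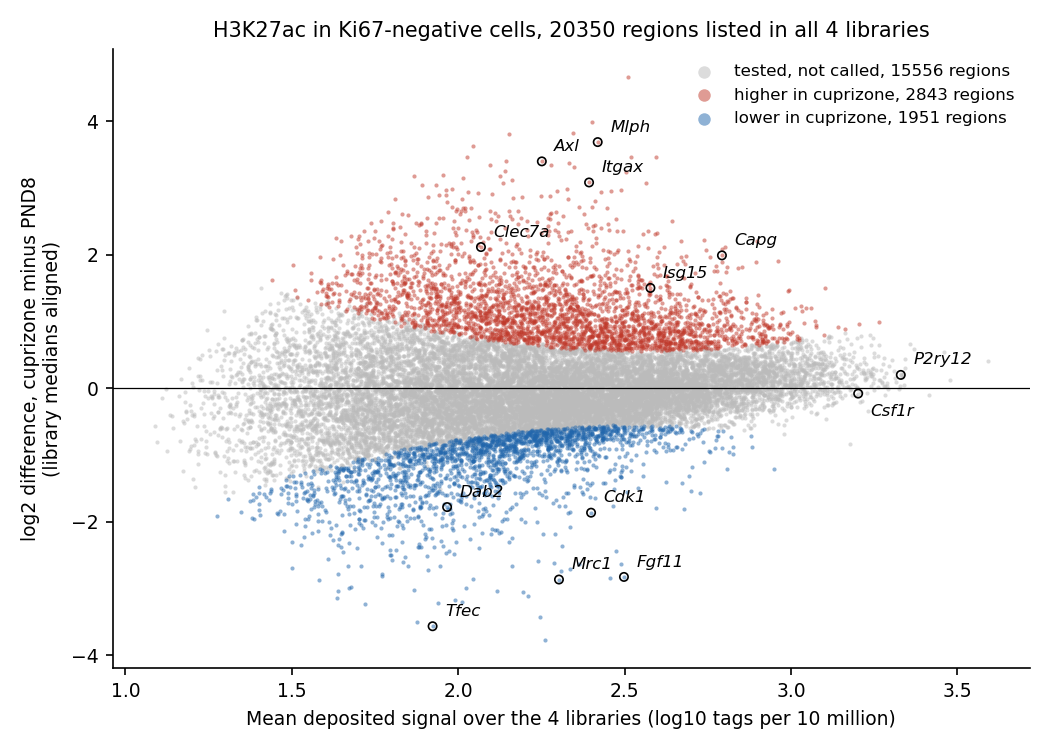
Difference in H3K27ac (log2, cuprizone minus PND8, library medians aligned) for each of the 20350 regions listed in all 4 Ki67-negative libraries, against its mean deposited signal (log10 scale, tags scaled to 10000000). Colours mark the 2843 regions called higher and the 1951 called lower by limma, which lie on both sides of 0 across the range of signal.

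The largest differences in either direction were at single regions near genes of quite different function. Among regions of above-median signal the largest increase was at chr7:75821565-75825453, 22.9 kb from Klhl25, which encodes an adaptor of a ubiquitin ligase. Its signal was 10.2 and 32.6 in PND8 and 520.2 and 729.7 after cuprizone. The groups did not overlap, and the log2 difference was 4.66 (SE 0.342, limma adjusted p 4.92e-10). The promoter region of Mlph, for melanophilin, which links vesicles to a myosin motor, stood at 40.8 and 21.2 against 500.7 and 487.0, a difference of 3.69 (limma adjusted p 1.74e-09). These were among the 10 largest increases, with regions 26.3 kb from Gpr3, an orphan receptor (3.99), 53.9 kb from Daam1, an actin-nucleating formin (3.83), 53.1 kb from Rai14, an actin-associated ankyrin-repeat protein (3.47), 17.4 kb from Iah1, an esterase (3.35), and 28 kb from Ywhah, a 14-3-3 protein (3.25). Per kb of listed sequence the differences were smaller, 2.5 at Klhl25 and 1.71 at Mlph, since the listed stretch was also longer in cuprizone. Both were called per kb as well. The genes with most called increases were Cd9, Chsy1, Ptk2b, Tgfbr2 and Tns3, with 9 regions each.

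Genes of the disease-associated programme had H3K27ac gains at promoters and at distal regions. Of the 74 tested regions nearest to these 30 genes, 39 (52.7%) were higher, none was lower, and the median difference was 0.71. Over all 18718 tested regions within 100 kb of a TSS, 13.3% were higher, 9.63% were lower and the median was -0.04. The count was 49 higher on the values as deposited and 33 per kb, with none lower in either case. The 39 regions belonged to 17 of the 30 genes.

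Axl encodes a receptor tyrosine kinase by which macrophages take up dying cells. The Axl promoter region, chr7:25786336-25789194, had a signal of 32.7 and 16.1 in PND8 and of 236.4 and 427.9 after cuprizone. It was weak in both PND8 libraries and strong in both cuprizone libraries, with a log2 difference of 3.40 (SE 0.334, limma adjusted p 4.58e-08), or 1.68 per kb. Itgax, for the integrin CD11c, had a promoter region at chr7:128127447-128130363 with 22.4 and 71.7 in PND8 and 362.8 and 531.9 after cuprizone. The groups were again apart, by 3.09 (SE 0.33, limma adjusted p 1.51e-07), or 1.84 per kb. The promoter region of Clec7a, for the pattern receptor Dectin-1, at chr6:129470717-129473633, stood at 33.7 and 34.0 against 134.9 and 265.4. Its difference was 2.12 (SE 0.317, limma adjusted p 1.73e-05), or 1.24 per kb. Capg, which caps actin filaments, stood at 174.0 and 240.4 against 930.0 and 1135.0 at its promoter region, a difference of 1.99 (limma adjusted p 1.8e-07). The promoter region of Lgals3, for galectin-3, was listed in neither PND8 library and at 78.0 and 135.8 after cuprizone.

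Distal regions of other genes of this programme were higher too. At Lpl, the lipoprotein lipase, the promoter region had 185.2 and 198.6 in PND8 and 230.4 and 363.4 after cuprizone, and the difference of 0.26 was not called (limma adjusted p 0.397). A region 32.1 kb away, chr8:68912621-68915823, had 44.4 and 18.9 in PND8 and 205.4 and 234.2 after cuprizone, a difference of 2.54 (limma adjusted p 5.94e-06), or 1.00 per kb. Another, 44.5 kb away, differed by 2.31. At Spp1, for the secreted phosphoprotein osteopontin, the promoter region was listed only in the second cuprizone library, at 17.7. A region 7.8 kb away, chr5:104425231-104427288, stood at 61.7 and 52.0 against 227.9 and 258.4, a difference of 1.75 (limma adjusted p 2.1e-05). Cd9, for a tetraspanin of the cell surface, had 9 called increases from 0.7 to 2.95, among them the promoter region, from 256.1 and 277.3 to 855.0 and 984.6 (1.45), and a region 39.7 kb away, from 39.3 and 49.7 to 283.3 and 382.5. The 3 smallest of the 9, at 5.7, 14.3 and 21.7 kb, lost the call when 1 library was left out, as did a region 2.0 kb from Cst7, the cathepsin inhibitor cystatin F (0.90, limma adjusted p 0.0189).

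Some members of the same list were not called or were listed on the PND8 side. The Apoe promoter region, of the gene for the lipid carrier apolipoprotein E, had 545.4 and 541.7 in PND8 and 352.3 and 607.1 after cuprizone, and the groups overlapped (log2 difference -0.56, limma adjusted p 0.0603). The promoter region of Igf1, a growth factor, had 259.7 and 245.1 against 205.4 and 364.4 (-0.21, limma adjusted p 0.501). The promoter region of Gpnmb, for a membrane glycoprotein of lysosome-rich cells, was listed in both PND8 libraries at 33.2 and 15.6 and in neither cuprizone library. Of the 129 regions near the list's genes, 9 were listed in cuprizone only and 4 in PND8 only.

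**Figure D2:**
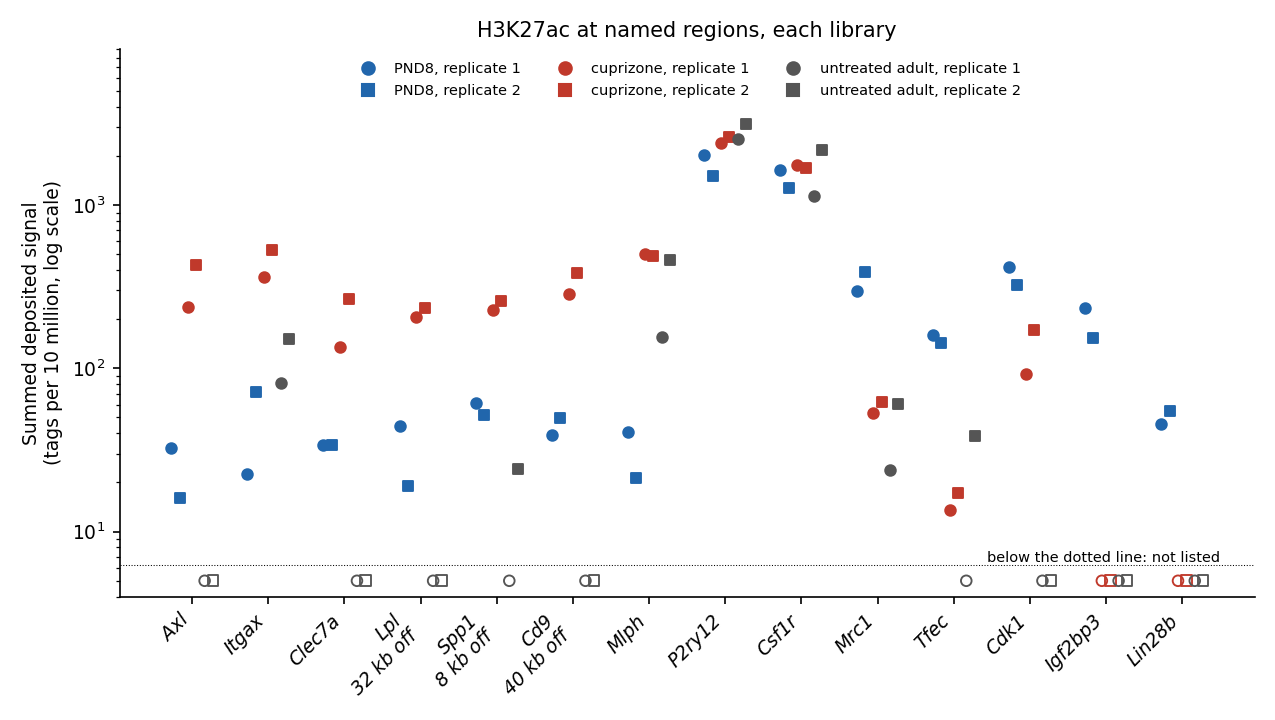
Summed deposited signal (tags scaled to 10000000, log axis) of named regions in each PND8, cuprizone and untreated adult library, 1 symbol per library, with symbols below the dotted line where the library does not list the region. At Axl, for example, the cuprizone libraries stand at 236.4 and 427.9, the PND8 libraries at 32.7 and 16.1, and neither adult library lists the region.

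Interferon-response genes, the antiviral genes induced by interferon signalling, also had more H3K27ac after cuprizone. Of 28 tested regions, 13 (46.4%) were higher and none was lower, with a median difference of 0.67 and 12 genes involved. At promoters 9 of 17 were higher, against 3.7% of all tested promoter regions. Isg15 had a promoter region with 131.7 and 197.8 in PND8 and 470.7 and 711.6 after cuprizone, a difference of 1.51 (SE 0.217, limma adjusted p 1.12e-05). Ifi204, a nucleic acid sensor, stood at 26.5 and 32.6 against 141.9 and 191.8 (2.12, limma adjusted p 2.68e-05). Rtp4 and Ifit3b differed by 1.51 and 1.46 at their promoter regions. That of Oas1a, an antiviral oligoadenylate synthetase, was listed after cuprizone only, at 16.5 and 68.1.

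Among genes of NF-kB signalling, 19 of 67 tested regions (28.4%) were higher and 2 (2.99%) lower, and 34 were higher on the values as deposited. They included regions of the chemokine genes Cxcl16 (2.47), Ccl5 (1.87), Ccl4 (1.51) and Ccl3 (1.23). The Ccl4 promoter region had 144.4 and 160.5 in PND8 and 560.7 and 537.5 after cuprizone. The complement list had 10 of 25 higher and 2 lower. Without the first PND8 library 5 were higher and none lower, and without the first cuprizone library 6 were higher. A region 18.3 kb from Itgb2, the shared subunit of the complement receptors, went from 213.8 and 238.6 to 897.0 and 1046.7, a difference of 1.77 (limma adjusted p 7.02e-07). Antigen presentation genes had 5 of 27 tested regions (18.5%) higher and 1 lower, near the 13.3% and 9.63% over all regions within 100 kb of a TSS. Those higher included promoter regions of H2-DMb1 (0.91) and H2-M3 (0.76), and the calls were lost in 1 or more alternatives.

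The genes that mark homeostatic microglia, those of the undisturbed adult brain, were not called at the best-known promoters after the medians were aligned. At P2ry12, the purinergic receptor that guides microglial processes, the promoter region had 2017.9 and 1497.1 in PND8 and 2414.6 and 2616.6 after cuprizone. The 2 groups did not overlap before alignment, but the aligned difference was 0.20 (SE 0.389, limma adjusted p 0.751). Csf1r, the receptor on which microglia depend for survival, had 1650.0 and 1267.3 against 1755.5 and 1691.1 (-0.08, limma adjusted p 0.895). The promoter regions of Cx3cr1 (0.22), Tmem119 (0.35) and Sall1 (0.03) were not called either. On the values as deposited P2ry12 (0.53, limma adjusted p 0.048), Cx3cr1 (0.55, limma adjusted p 0.0424) and Tmem119 (0.68, limma adjusted p 0.0128) were called higher. The signs at P2ry12, Csf1r, Cx3cr1 and Sall1 changed when 1 library was left out, and that at Csf1r also on the values as deposited and per kb. Across the list's regions, 43 of 138 tested (31.2%) were higher and 3 (2.17%) lower, against 13.3% and 9.63% of all regions near a TSS. The list's median difference was 0.37. The number higher was 83 on the values as deposited, 28 without the first PND8 library and 26 without the first cuprizone library. Most of these were distal, since 4 of 27 promoter regions were higher and none was lower. Over all tested promoter regions 3.7% were higher and 11.5% lower. A region 23.3 kb from Entpd1, which degrades extracellular ATP, went from 95.4 and 96.6 to 363.3 and 379.5 (1.61, limma adjusted p 6.9e-06). Siglech, a sialic acid-binding receptor, went the other way at a region 22.0 kb off, from 456.6 and 500.3 to 201.4 and 224.6 (-1.49, limma adjusted p 5.65e-06).

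TGF-beta signalling, on which the adult identity of microglia depends, had a similar layout. Of 97 tested regions 37 (38.1%) were higher and 2 lower, while of 17 promoter regions none was higher and 1 was lower. A lean to distal increases held over all tested regions, where 3.7% of promoter regions and 20.6% of those without a TSS were higher. Of all tested regions within 100 kb of a TSS 13.3% were higher. Tgfbr2, a receptor subunit, had 9 higher regions, with differences from 0.68 to 1.5, and the one 67.4 kb off went from 154.6 and 146.2 to 501.2 and 577.8. The other subunit gene, Tgfbr1, had a region 18.2 kb off at 146.4 and 188.1 against 693.6 and 660.6 (1.69, limma adjusted p 2.03e-06). Smad7, an inhibitor of the pathway, differed by 1.45 at a region 94.5 kb off. Of the 9 increases at Tgfbr2, those at 6.3, 34.3, 62.6, 72.0 and 75.3 kb either lost the call without 1 library or were not called per kb. Among the microglial transcription factors, 27 of 134 tested regions (20.1%) were higher and 6 (4.48%) lower. The share higher lay above the 13.3% of all tested regions within 100 kb of a TSS and near the 20.6% of all tested regions without a TSS. The list held regions of both kinds. The number higher was 50 on the values as deposited, 13 per kb and 17 without the first PND8 library. The decreases included the promoter region of Tfec, a relative of the lysosomal regulator Mitf, which went from 160.7 and 143.5 to 13.5 and 17.2. That difference was -3.56 (limma adjusted p 1.64e-07), or -1.34 per kb.

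Genes of lipid uptake, storage and efflux had 22 of 67 tested regions (32.8%) higher and 4 (5.97%) lower, against 13.3% and 9.63% of all regions near a TSS. Those higher included regions near the cholesterol exporters Abcg1 (1.5) and Abca1 (1.52), and the Abcg1 region went from 538.3 and 572.5 to 1987.8 and 1970.7. Abca1 also had 2 lower regions, and PND8-only regions 20.1 and 50.8 kb off. Genes of sterol and fatty acid synthesis had 4 of 30 higher, the share over all regions near a TSS (13.3%), and 5 lower, with a median of -0.31. On the values as deposited 3 were higher and 1 lower, with a median of 0.02, and without the first PND8 library 2 were higher and 2 lower. Scd2, a fatty acid desaturase, was higher at a region 25.8 kb off (1.57), a call lost without 1 library. A region 1.5 kb from Acaca, which makes malonyl-CoA, was listed in cuprizone only, at 59.0 and 136.3, as was the Lss promoter region, of a cholesterol synthesis enzyme, at 21.0 and 20.7. Cyp51 (-1.27) and Msmo1 (-1.32), enzymes of cholesterol synthesis, were lower at their promoter regions, although neither was called on the values as deposited. Sqle, the epoxidase of that pathway, was lower at a region 50.0 kb off (-1.25). Lysosome and phagocytosis genes had 24 of 75 (32.0%) higher and 4 (5.33%) lower, and 48 were higher on the values as deposited and 15 per kb. Gas6, a ligand of Axl, was among those lower, with 340.3 and 355.0 in PND8 and 97.9 and 201.9 after cuprizone at its promoter region (-1.63, limma adjusted p 7.75e-06).

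**Figure D3:**
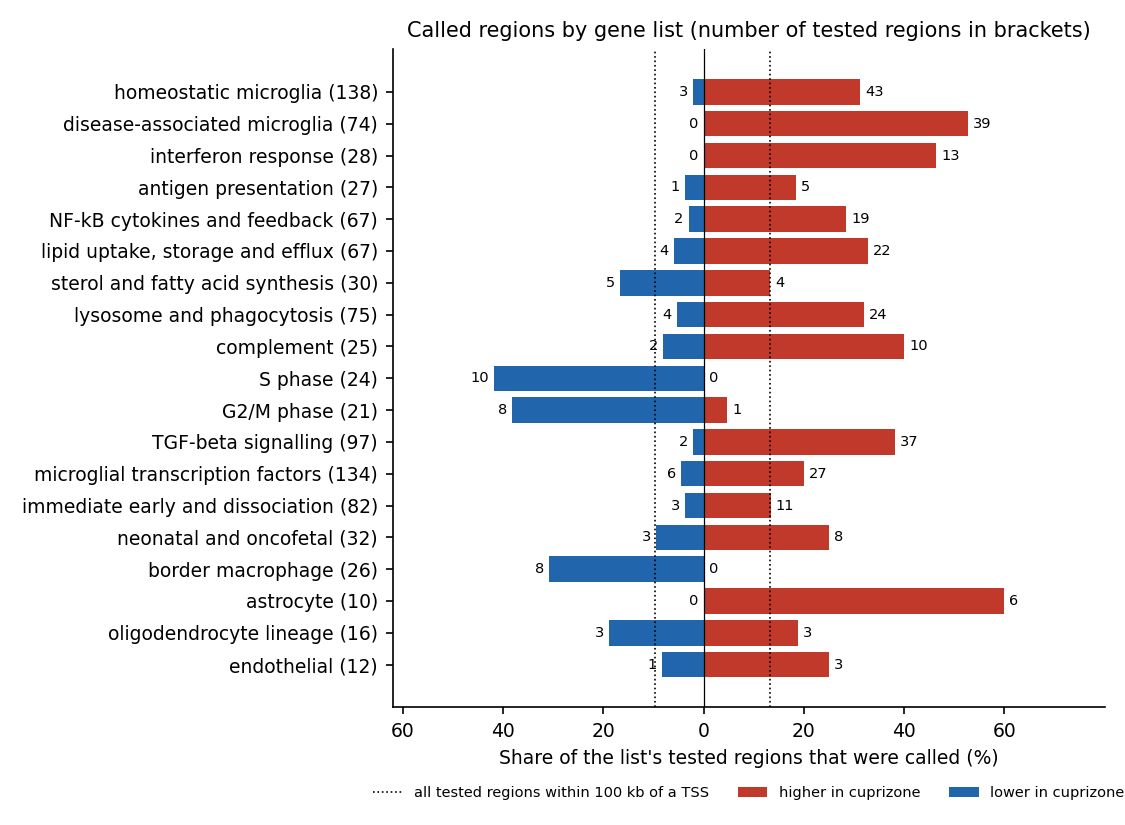
Share (%) of each gene list's tested regions that limma called higher (right) or lower (left) in cuprizone, with the number of tested regions in brackets. The disease-associated list has the highest share of increases among the 15 pathway lists, 52.7%, and the S phase list the highest share of decreases, 41.7%.

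The largest decreases after cuprizone, in regions of above-median signal, included Gas7, Mrc1 and Fgf11. Gas7 encodes an actin-binding adaptor. A region 16.9 kb from its TSS, chr11:67603373-67605810, had a signal of 304.6 and 363.7 in PND8 and of 24.5 and 36.3 after cuprizone. It had the largest decrease, -3.77 (limma adjusted p 6.14e-10), or -1.88 per kb. The Gas7 promoter region was lower by -2.59, and a region 21.3 kb off was listed in PND8 only, at 211.7 and 204.6. Mrc1 encodes the mannose receptor CD206. Its promoter region, chr2:14227921-14231313, had 296.9 and 389.9 in PND8 and 53.5 and 62.6 after cuprizone, a difference of -2.87 (limma adjusted p 7.07e-09), or -1.88 per kb. Others were the promoter regions of Fgf11, a fibroblast growth factor homologue (-2.83), Rgs7bp, which anchors a regulator of G proteins (-2.84), and Galnt2, which starts O-glycans (-2.61). Distal regions nearest to Nt5m, a mitochondrial nucleotidase (-3.42), P4ha2, a collagen prolyl hydroxylase (-2.70), Pus1, a pseudouridine synthase (-2.63), and Nid2, a basement membrane nidogen (-2.74), were also among the largest. The genes with most called decreases were Snx9, a sorting nexin, with 6, and Nid2 with 5. The Nid2 promoter region went from 121.9 and 149.4 to 25 and 40.9. Of the 6 at Snx9, 5 were not called on the values as deposited, whereas all 5 at Nid2 were.

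Some cell cycle genes carried less H3K27ac in the cuprizone group, although both groups were sorted as Ki67-negative, and the counts depended on the scaling. Over all tested regions within 100 kb of a TSS 13.3% were higher and 9.63% lower. Of 24 tested regions of S phase genes, none was higher and 10 (41.7%) were lower, with a median of -0.53. On the values as deposited 3 were higher and 4 lower, with a median of -0.2, and per kb 1 was higher and 5 lower. Without the first PND8 library 6 were lower. G2/M genes had 1 of 21 (4.76%) higher and 8 (38.1%) lower, with a median of -0.14. As deposited, 3 were higher and 1 lower, with a median of 0.19, and 3 were lower per kb and without either PND8 library. At Cdk1 the promoter region, chr10:69350554-69353103, had 415.3 and 323.3 in PND8 and 92.4 and 171.6 after cuprizone. The groups were apart by -1.86 (limma adjusted p 1.21e-06), and this region was also called on the values as deposited and per kb. Promoter regions of E2f1, a transcription factor of S phase entry (-1.42), and of the replication helicase genes Mcm2 (-1.60) and Mcm4 (-1.92) were lower and stayed called under both. Mcm2, for example, had 109.7 and 131.0 in PND8 and 43.0 and 56.5 after cuprizone. Promoter regions of Hells, a chromatin remodeller (60.2 and 49.2), and of Ccnb1, Ccnb2 and Kif23, which act in mitosis, were listed in PND8 only. Aurka (-0.85) and Bub1b (-0.99) were lower but not called on the values as deposited. The Mki67 promoter region moved with them, as given above, and the share of cycling cells in either gate was not tested.

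Neonatal and oncofetal genes differed gene by gene. The promoter region of Igf2bp3, an RNA-binding protein of fetal tissue, at chr6:49213611-49215548, was listed in both PND8 libraries, at 233.2 and 153.1, and in neither cuprizone library. Further PND8-only regions lay 2.4 and 37.6 kb off. Lin28b, which blocks maturation of the let-7 microRNA, had a PND8-only promoter region at 45.9 and 54.7. Dnmt1, the maintenance DNA methyltransferase, was lower at its promoter region (-1.10), without a call on the values as deposited. Dnmt3a, a de novo DNA methyltransferase, was higher at a region 15.9 kb off, from 82.7 and 108.5 to 426.7 and 554.1 (2.02, limma adjusted p 1.73e-07). The list as a whole had 8 of 32 tested regions higher and 3 lower, and 4 higher and 1 lower without the first PND8 library. Over all tested regions within 100 kb of a TSS 13.3% were higher and 9.63% lower, so the list's share lower was close to that of all regions. Only 5 of the 32 held a TSS, and of all tested regions without a TSS 20.6% were higher.

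Markers of other cells that a sort of brain macrophages could hold were examined in the same way. Border macrophages, which line the meninges and vessels, express Mrc1, Pf4, Dab2, Cd163 and F13a1. Of this list's 26 tested regions none was higher and 8 (30.8%) were lower, against 13.3% and 9.63% of all regions near a TSS. The list's median difference was -0.43. As deposited, 3 were higher and 3 lower, with a median of -0.1, and 4 were lower without the second PND8 library. The promoter regions of Pf4, a platelet chemokine (53.1 and 65.3), and Ccr1, a chemokine receptor (57.7 and 72.7), were listed in PND8 only. Of its 12 genes, 9 had a listed promoter region, all but Cbr2, Cd163 and Folr2. The summed signal over them was 1258.7 and 1433.6 in PND8 and 1056.9 and 957.3 after cuprizone. No neuronal marker of 12 had a promoter region. The 1 tested region near them, 33.3 kb from Snap25, was higher (1.63, limma adjusted p 0.0392) but not called per kb. The astrocyte markers had 1 of 10, with 17.3 and 23 in PND8 and 91.9 and 102.9 after cuprizone, and Gfap and Aqp4 had none. Regions of any kind lay near 3 of the 10 astrocyte genes. Of the 10 tested regions nearest to them 6 were higher and none lower, with a median of 1.04, which moved with the cuprizone increases. All 6 lay near 2 genes, Slc1a3 and S100b. The largest was 46.1 kb from Slc1a3, a glutamate transporter, from 48.5 and 77.2 to 292.8 and 614.7 (2.44, limma adjusted p 1.63e-07). The oligodendrocyte list had 4 of 12, with 439.9 and 400.1 against 431.3 and 574.3, and Olig1, Olig2 and Sox10 had none. Of this list's 16 tested regions 3, near Mbp, were higher and 3, near Mog and Opalin, were lower. A region 56.2 kb from Mbp went from 309.2 and 312.7 to 981.9 and 967.4, and the Mog promoter region from 103.6 and 99.3 to 34.0 and 28.8. The endothelial list had 3 of 10, with 147.5 and 249.2 against 311.9 and 473.4. Monocyte and neutrophil markers had 2 of 12, with 67.8 and 74.0 against 0.0 and 28.3, and S100a8, S100a9, Ly6c2 and Ccr2 had none. Of 12 lymphocyte markers 1 had a region, with 88.8 and 89.7 against 0.0 and 15.6, and of 8 erythroid markers 1, with 226.5 and 215.2 against 9.5 and 0.0. The part of these other cells in the results was not tested.

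Regions listed in 1 group only were weaker and narrower than the tested ones. Their median signal was 28.5 and 50.5 in the 2 cuprizone libraries and 22.4 and 26.7 in the 2 PND8 libraries, against a median of 168.2 for tested regions. Their median width was 1221 bp in cuprizone and 970.5 bp in PND8, against 2073.5 bp for tested regions that were not called. A region missing from a list is not a region without signal, since the caller also filters against the surrounding 10000 bp. Of the cuprizone-only regions 23.1%, and of the PND8-only regions 14.4%, lay within 3000 bp of a region listed in both libraries of the other group. The strongest cuprizone-only regions included one 14.0 kb from Itgb2, at 378.8 and 405.2, and one 42.0 kb from Nuak1, a kinase related to AMPK, at 608.6 and 344.2. Others lay 17.8 kb from Naa20, an N-terminal acetyltransferase subunit (328.3 and 412.8), and 17.0 kb from Rassf3 (277.8 and 318.9). The strongest in PND8 included Igf2bp3 and Gas7, given above, and a region 58.8 kb from Gfra2, a receptor of neurturin (182.7 and 126.0). A region of this kind has no value in the other group, so none was among the 20350 tested. With missing values set to the lowest listed value, limma on the 29081 regions listed in 2 or more libraries called 2659 higher and 1652 lower.

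Promoter and distal regions differed in their balance of increases and decreases. Of the 7947 tested regions that held a TSS, 294 (3.7%) were higher and 913 (11.5%) lower, with a median difference of -0.24. Of the 12403 without a TSS, 2549 (20.6%) were higher and 1038 (8.37%) lower, with a median of 0.181. On the values as deposited, both medians were positive, 0.09 and 0.511, and promoter regions had 796 increases and 95 decreases, so the sign at promoters depends on the alignment. The gap between the 2 kinds is the same on both scales by construction, since the alignment shifts all regions of a library equally. The gap was positive in each of the 4 pairs of a cuprizone with a PND8 library, at 0.673, 0.46, 0.389 and 0.166. Between replicates it was 0.211 in PND8 (second minus first) and -0.258 in cuprizone, so the smallest gap between groups was within the replicate range. Of the called increases 10.3% held a TSS, of the decreases 46.8%, of regions not called 43.3%, of cuprizone-only regions 3.69% and of PND8-only regions 8.91%. Open chromatin by ATAC-seq was available in 1 library of untreated adult microglia. It overlapped 97.0% of the increases, 97.4% of the decreases, 97.6% of regions not called, 64.0% of the cuprizone-only and 65.7% of the PND8-only regions. In 1 library of Ki67-positive PND8 microglia, from Ki67 reporter mice, the shares in the same order were 92.0%, 97.5%, 96.0%, 52.3% and 75.4%. Trimethylation of lysine 4 of histone H3, a promoter mark, overlapped 26.5% of the increases and 60.3% of the decreases in 1 adult library, against 60.8% of regions not called. The untreated adult mice of both assays were older than those of the adult H3K27ac libraries given below.

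**Figure D4:**
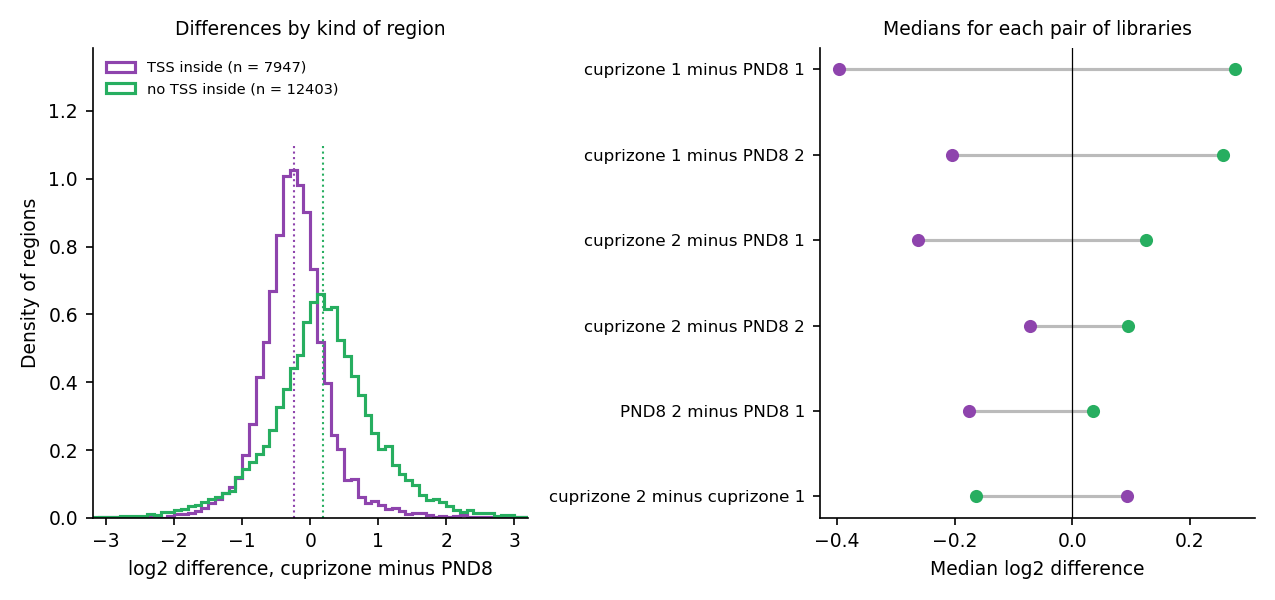
Left, the density of log2 differences (cuprizone minus PND8) for regions with and without a TSS, with medians of -0.24 and 0.181; right, the median log2 difference of both kinds for each pair of libraries. The medians of distal regions lie above those of promoter regions in all 4 pairs across groups, and below them between the 2 cuprizone replicates.

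The 250 bases before the TSS were then searched for the 8 motifs in all 32851 promoters of the RefSeq table. The AP-1 letters were in 8.99% of the 378 promoters in regions with an increase, in 2.68% of the 1082 in regions with a decrease, in 3.88% of the 7404 in regions not called and in 6.75% of all promoters. In the same order, of increases, decreases, regions not called and all promoters, the ISRE letters were in 6.08%, 3.23%, 2.58% and 2.98%. The PU.1 core was in 31.5%, 24.9%, 22.7% and 23.3%. The E2F letters were in 2.38%, 4.44%, 3.67% and 1.86%, so decreases stood nearer to regions not called than to all promoters. The CCAAT box was in 30.2%, 38.5%, 35% and 33.8%, and the E-box in 8.73%, 9.06%, 8.87% and 6.02%. The CHR was in 10.6%, 12.6%, 9.41% and 16%, and the sterol response element in 1.85%, 0.832%, 0.972% and 1.05%. No test was made of these shares.

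The same comparison was available in Ki67-positive cells, from libraries that played no part in choosing the regions. The labels do not say whether both fractions came from the same animals. Each Ki67-positive library carries the same header code as the Ki67-negative library of its group and number. A difference tied to the code would thus appear in both fractions, and this was not tested. There 3374 regions (16.6%) were higher and 2765 (13.6%) lower among 20355 tested. Of the 2843 increases in Ki67-negative cells, 2538 had a value in all 4 Ki67-positive libraries. Of these 2492 (98.2%) differed in the same direction, 1969 (77.6%) were called in it and none was called in the other. Of the 1951 decreases, 1642 had values, 1580 (96.2%) differed in the same direction, 1068 (65.0%) were called in it and 5 in the other. The median difference was 1.05 in Ki67-negative and 1.04 in Ki67-positive cells for the increases, and -0.95 and -0.77 for the decreases. At the Axl promoter region the Ki67-positive libraries had 19.6 and 53.2 in PND8 and 302.6 and 506.8 after cuprizone, and the difference was 3.39 against 3.40. At Mrc1 they had 351.8 and 447.1 against 13.8 and 39.0. A test of the difference between the cell fractions, on 18156 regions with values in all 8 libraries, called 4 (0.0220%) by limma, and 1380 had an unadjusted p under 0.05. They were the promoter regions of Ifi207, an interferon-induced gene, and Gramd1b, a sterol transporter, and regions 79.5 kb from Tmem163, a zinc transporter, and 67.2 kb from Abca1. No region was called in this test on the values as deposited, per kb or with the replicate block.

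**Figure D5:**
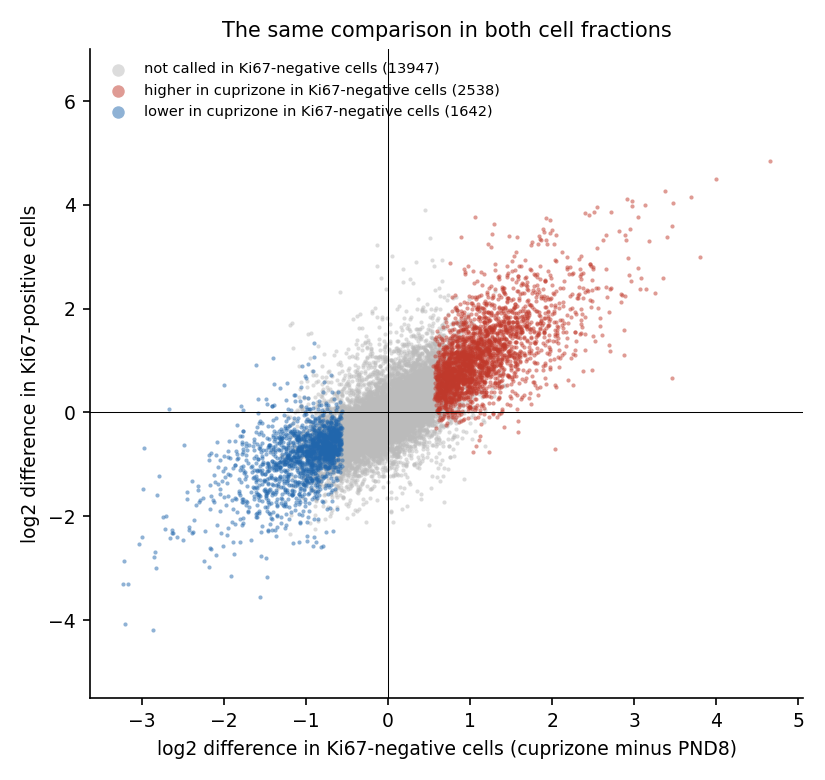
Log2 difference (cuprizone minus PND8) in Ki67-negative cells (x axis) and Ki67-positive cells (y axis), 1 point per region, coloured by the call in Ki67-negative cells. Of the increases with values in both fractions 98.2%, and of the decreases 96.2%, have the same sign in both.

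H3K27ac lists of 2 libraries of microglia from untreated adult mice, 60 and 65 days old and not sorted on Ki67, were set beside these groups. The comparison was chosen after values were seen, it shares the PND8 and cuprizone libraries that made the classes, and it carries no test. In the 2338 increases listed in all 6 libraries, the median log2 difference of adult minus PND8 was 0.74 and 0.97 in the 2 adult libraries. That of adult minus cuprizone was -0.34 and -0.09. In the 1402 decreases so listed, adult minus PND8 was -0.95 and -0.86, and adult minus cuprizone was 0.06 and 0.11. At the Mlph promoter region the adult libraries had 156.4 and 458.6, against 500.7 and 487.0 after cuprizone. At Mrc1 they had 24 and 60.2, against 53.5 and 62.6 after cuprizone. Of the 2843 increases 133 (4.68%), and of the 1951 decreases 117 (6.0%), were in neither adult list. Regions in either adult list made up 95.3% of the increases, 94.0% of the decreases and 95.8% of those not called. These shares lay close together. Promoter regions among those 133 included Axl, Clec7a and Lilrb4a, a phagocyte inhibitory receptor, and the distal regions of Lpl at 32.1 kb and Cd9 at 39.7 kb were also in neither list. Promoter regions among the 117 included Cdk1, Mcm2 and Chek1, a kinase of the DNA damage checkpoint. Of the cuprizone-only regions 60.0%, and of the PND8-only regions 80.5%, were in neither adult list. The first adult library held 32.60% of its tags in 19572 regions and the second 58.31% in 24903.

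RNA after cuprizone is not analysed here. The nearest RNA comparison is of Ki67-negative PND8 microglia with untreated adult microglia, 2 libraries each, of 8063370 to 10287876 counts. The PND8 RNA came from Ki67 reporter mice and the adult RNA from wild-type mice aged 90 days. Of 12230 genes tested with edgeR, 3105 (25.4%) were higher and 2615 (21.4%) lower in PND8. Of 1071 tested genes whose TSS lay in a region lower in cuprizone, 455 (42.5%) were higher and 90 (8.4%) lower in PND8 RNA. Of 294 in regions higher in cuprizone, 34 (11.6%) were higher and 168 (57.1%) lower. For PND8-only regions 71 of 123 (57.7%) were higher and 3 (2.44%) lower, and for cuprizone-only regions 7 of 42 (16.7%) were higher and 20 (47.6%) lower. In CPM, counts scaled to the library total, Mrc1 RNA was 731.5 and 519.7 in PND8 and 49.73 and 52.67 in adults, a log2 fold change of 3.61 (edgeR adjusted p 2.5e-09). Igf2bp3 RNA was 80.2 and 81.64 against 2.545 and 2.811, and Mlph RNA was 20.67 and 16.79 against 228.1 and 224.2.

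Axl, Itgax, Spp1 and Lpl, which had regions higher in cuprizone, had higher RNA in PND8 than in the untreated adult. Axl RNA was 78.83 and 139.8 CPM in PND8 and 37.01 and 41.91 in adults (log2 fold change 1.48, edgeR adjusted p 0.000201), and Itgax RNA 138.4 and 210.3 against 28.57 and 25.66 (2.69). Spp1 RNA was 238.4 and 279.7 against 6.477 and 5.988 (5.37), and Lpl RNA 346.5 and 512.4 against 48.46 and 46.31 (3.18). Their RNA was set against the untreated adult, while H3K27ac at the regions named above was lower in PND8 than after cuprizone. The reference groups differ, so these values do not show that RNA and H3K27ac disagree. As given above, the Axl promoter region and the nearer of the distal Lpl regions were listed in both PND8 libraries and in neither adult list. The Lpl region 44.5 kb off had 31.1 and 28.5 in PND8 and 17.9 and 15.7 in adults. The Spp1 region 7.8 kb off, with 61.7 and 52.0 in PND8, was listed in the second adult library only, at 24.3. The Itgax promoter region went the other way from its RNA, with 22.4 and 71.7 in PND8 and 80.8 and 151.4 in adults. No test was made of PND8 against adult H3K27ac. Clec7a RNA was 39.85 and 23.48 against 33.89 and 27.98, and the groups overlapped (0.02, edgeR adjusted p 0.963).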

How the data were processed

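H3K27ac was measured by chromatin immunoprecipitation and sequencing. Per the submitters' processing notes, Bowtie2 2.3.4.1, STAR 2.7.0f and HOMER 4.11 were used with mm10. Per the file headers, the authors called regions per library with HOMER from windows of 500 bp at an FDR of 0.001, with at least 4.00 times the input and a filter against the surrounding 10000 bp. The deposited signal is the tags of a region scaled to 10000000, and the deposited fold over input is a ratio that served in 1 alternative. The header's names of the last columns are shifted against the values. The deposited score column gave no result. Whole-number counts per gene, deposited by the authors, served for the RNA comparison and the TSS positions.

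Listed regions of the 4 libraries were merged and their signals summed per library. Regions with a value in all 4 were tested with limma 3.58.1 (R 4.3.3) on log2(signal + 1), each library shifted to a common median, with trended variance and Benjamini-Hochberg adjustment at 0.05. Ki67-positive libraries were tested alike, and the difference between fractions by a limma interaction. RNA was tested with edgeR 4.0.16 (quasi-likelihood, TMM) over 10 libraries, with DESeq2 1.42.0 as an alternative. The tests were checked on simulated data. Same-numbered replicates did not deviate together (r = 0.0426 across regions), so the numbers were not taken to pair them, although both first libraries carry the same header code.

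The members and gene lists were chosen with earlier results of these data known. Genes named are a panel, the 10 largest called differences in each direction above the median signal, the 5 genes with most called regions, the 8 strongest regions of 1 group only, and up to 4 genes per list. Alternatives covered scaling, pseudocount, merging, filters, input fold, signal per kb, a replicate block and left-out libraries. Peak lists of RNA polymerase II, TPM values and sequences of distal regions were not used here, and results at a few genes that the naming rule chose are not reported here.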

Additional observations from a re-analysis of the deposited data

Results flagged for a closer look

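In 4 regions the difference between cuprizone and PND8 itself differed between Ki67-negative and Ki67-positive cells by the limma interaction test, with the change larger in Ki67-positive cells in each. Near Tmem163, 79.5 kb off, the Ki67-negative libraries had 90.8 and 106.2 in PND8 and 240.4 and 369.9 after cuprizone, and the Ki67-positive libraries had 39.2 and 49.1 and then 514.7 and 575.9. The interaction was -2.18 on the log2 scale (SE 0.28, limma adjusted p 0.0303). At the Ifi207 promoter region the values were 89.3 and 98.4 against 198.9 and 307.3 in Ki67-negative cells, and 14.7 and 29.3 against 337.4 and 330.6 in Ki67-positive cells, an interaction of -2.72 (SE 0.373, limma adjusted p 0.0349). A region 67.2 kb from Abca1 had 148.0 and 145.3 against 154.9 and 197.3, and 63.2 and 80.5 against 251.4 and 334.9, an interaction of -1.93 (SE 0.268, limma adjusted p 0.0349). The Gramd1b promoter region had 303.6 and 233.6 against 247.9 and 347.7, and 86.7 and 106.8 against 348.6 and 515.7, an interaction of -2.16 (SE 0.262, limma adjusted p 0.0303). All 4 calls were lost on the values as deposited, per kb and with the replicate block.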

How the results depend on the processing

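The 2843 increases and 1951 decreases became 4768 and 404 on the values as deposited, 1760 and 1256 among the 10174 regions above the median signal, 1408 and 904 among the 9460 with at least 8 times the input, and 1673 and 1011 with a difference of at least 1. Per kb the decreases were 1292. With the header code and Ki67 status as terms, chosen after the data were seen, 4371 and 4694 of 18127 regions were called. As given above, the group difference in that fit rested on the first libraries. Leaving out 1 library gave 1881 to 3100 increases and 871 to 2738 decreases, with the lowest counts without the first PND8 library, and no called region changed sign. The calls came from these same libraries, so a kept sign was nearly given in advance and is no separate support. Another pseudocount, merging across 500 bp, quantile normalisation and untrended variance stayed within 1.5 times. The replicate block, fitted although same-numbered libraries did not deviate together, gave 3175 and 1941. In Ki67-positive cells the decreases were 574 as deposited and 1256 to 3550 when 1 library was left out. The interaction called 0 regions as deposited, 0 per kb, 0 with the replicate block and 0 to 56 without 1 library. Cuprizone-only regions were 326 of 28982 at 8 times the input and 1700 to 4199 without 1 library, and PND8-only regions 1575 to 4402. The RNA counts stayed within 1.5 times in the alternatives run. Of 1296 alternative values of the 162 called regions eligible to be named, 126, of 52 regions, were no longer called and 0 reversed. Those alternatives also reuse the libraries that made the calls. Signs reversed at 5 promoter regions that were not called. As deposited, Igf1 stood at 0.117 and Csf1r at 0.253, and per kb Csf1r stood at 0.127. Without 1 library the values ran from -0.432 to 0.004 at Igf1, from -0.299 to 0.143 at Csf1r, from -0.035 to 0.438 at P2ry12, from -0.241 to 0.301 at Sall1 and from -0.067 to 0.512 at Cx3cr1. The cause was not tested for any of these.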
